A study of Mus musculus with 8 samples.

Results

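Sycp1 and Sycp2, which encode structural proteins of the synaptonemal complex, were followed as 2 genes of the 53465 in a table of counts and as 9 of the peaks in 4 lists of RNA methylation. They were chosen by name: the symbols in the peak lists gave the Ensembl identifiers ENSMUSG00000027855 (Sycp1) and ENSMUSG00000060445 (Sycp2), and both had a row of counts. The study mapped N6-methyladenosine (m6A), the most common internal modification of messenger RNA, by MeRIP-seq: RNA is broken into short pieces, those that an antibody to m6A captures (IP) are sequenced, and so is a part kept back before capture (input). All samples were spermatogenic cells from the testes of 12-week-old C57BL/6 mice, either wild type (WT) or Alkbh5-/- (KO), which lack ALKBH5, an enzyme that takes m6A off RNA. The cell fractions carry the names PA and RO in the labels; pachytene spermatocytes and round spermatids are the cells in the title of the series. There were 8 samples in 8 groups, 1 input and 1 IP library for each genotype and cell fraction. The labels give neither the number of animals behind a library nor the way the fractions were separated. Since each group was 1 library, differences have no replicate check, nothing was tested, and the values describe these libraries.

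The synaptonemal complex is a protein ladder that holds paired homologous chromosomes together during meiotic prophase. SYCP2 sits with SYCP3 on the lateral elements, the axes of the chromosomes, and SYCP1 forms the transverse filaments that span the gap between the axes. The complex is complete in pachytene spermatocytes and is taken apart before the meiotic divisions, so that round spermatids, the haploid cells that follow, carry none. The transcripts of both genes are therefore classical markers of spermatocytes.

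On the mm10 build that the submitters' processing notes name, both genes lie on the minus strand. RefSeq (GRCm38.p6) places Sycp1 on chromosome 3 from 102818499 to 102936100 and Sycp2 on chromosome 2 from 178345295 to 178407776. Within these spans RefSeq annotates 1 further gene each, the pseudogenes Gm33866 in Sycp1 and Gm18662 in Sycp2, and neither had a peak. RefSeq also lists a transcribed pseudogene of Sycp1 on chromosome 7, Sycp1-ps1, which has no symbol in the peak lists. How reads shared between Sycp1 and this copy were counted is not given in the sources used here, so counts of Sycp1 are uncertain to that extent.

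The input libraries held between 9921365 and 13147239 counts. Levels are given as CPM, the count of a gene relative to the size of its library, after correction with TMM factors, which were 0.892 and 0.953 for the WT libraries (PA, RO) and 1.09 and 1.08 for the KO libraries. Symbols came from the peak lists alone and cover 8733 genes, so that a gene without a peak in any list has no name here. Alkbh5 is among the genes without one, so its counts gave no check of the genotypes.

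Sycp2 was among the genes with the most counts in each library, counts not being corrected for transcript length. The WT libraries held 20841 counts of it in PA (1777 CPM) and 17483 in RO (1518.5 CPM), and the KO libraries 8932 in PA (825.7 CPM) and 10184 in RO (929.8 CPM). By count it ranked 23rd and 31st of all genes in the WT libraries (PA, RO) and 57th and 45th in the KO libraries. Both KO libraries lay below both WT libraries, and within a genotype the fractions were close.

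Sycp1 varied far less. The WT libraries held 4219 counts of it in PA (359.6 CPM) and 4192 in RO (364.1 CPM), and the KO libraries 3666 in PA (338.9 CPM) and 4759 in RO (434.5 CPM). The highest library was KO RO and the lowest KO PA, so the genotypes were not separated. With TMM the levels of WT PA and WT RO did not differ beyond counting error. With library totals alone the log2 ratio RO over PA in WT moved beyond it, to 0.11.

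The first question was whether loss of the demethylase goes with a different level of the 2 transcripts. In PA, Sycp2 was 2.15-fold lower in KO than in WT (log2 ratio -1.11, 95% interval -1.14 to -1.07). This interval, like all intervals of ratios here, is exact binomial and covers counting error only. Of 24331 genes that reached 1 CPM in one of the libraries compared, 43.7% differed by 2-fold or more and 19.9% were 2-fold or more lower in KO. In RO, Sycp2 was 1.63-fold lower in KO (log2 ratio -0.71, -0.74 to -0.67), short of 2-fold; there 42.1% of 24763 genes differed by 2-fold and 19% were that much lower. The direction was the same under every scaling tried, but with library totals alone the log2 ratio in PA was -0.82, and with totals that left out the 20 highest genes of each library it was -0.90, both short of 2-fold. With totals alone the share of higher genes among all 2-fold differences in PA went from 54.6% to 65.5%.

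Genes of like abundance also leaned toward lower counts in KO. Among 108 genes whose summed count in the PA libraries was within a factor of 2 of that of Sycp2, the median log2 ratio KO over WT was -0.44 with a robust SD (scaled median absolute deviation) of 0.55, and 13.0% lay below Sycp2. Sycp2 thus stood 1.21 robust SD below their median. In RO, where 132 genes were of like count, the median was -0.42, the robust SD 0.52, and 29.5% lay below Sycp2, which stood 0.546 robust SD below the median. The lower level of Sycp2 in KO was therefore far beyond counting error but inside the range that abundant genes covered between these libraries.

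Sycp1 differed little between genotypes. Its log2 ratio KO over WT was -0.09 (-0.15 to -0.02) for PA and 0.25 (0.19 to 0.32) for RO. Library totals alone gave 0.20 in PA, and totals without the 20 highest genes 0.12, so the direction in PA depended on the scaling. In PA it lay 0.442 robust SD above the median of 948 genes of like count, which was -0.35. In RO it lay 0.963 robust SD above the median of 769 such genes, which was -0.28.

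**Figure D1:**
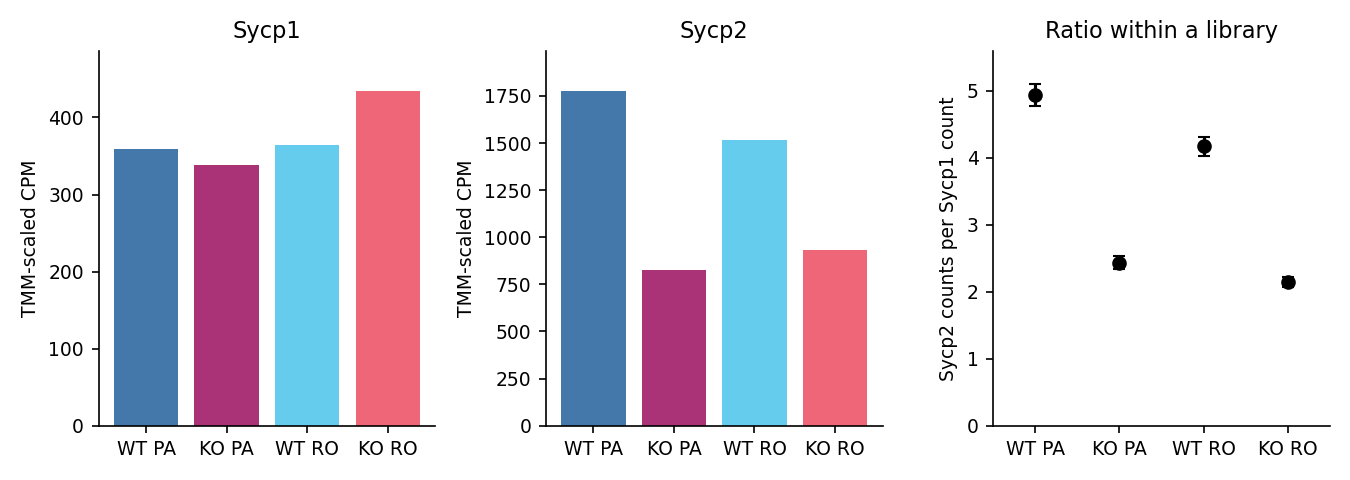
Input levels of Sycp1 and Sycp2 in the 4 libraries as bars of TMM-scaled CPM, and the number of Sycp2 counts per Sycp1 count in each library with its exact binomial 95% interval; each bar or point is 1 library. Sycp2 is lower in both KO libraries, Sycp1 is highest in KO RO (its direction between genotypes in PA depends on the scaling), and the ratio falls from 4.94 and 4.17 in the WT libraries to 2.44 and 2.14 in the KO libraries.

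The ratio of both genes within a library does not depend on any scaling between libraries. For each Sycp1 count the WT libraries held 4.94 Sycp2 counts in PA (4.78 to 5.11) and 4.17 in RO (4.03 to 4.31). The KO libraries held 2.44 in PA (2.34 to 2.53) and 2.14 in RO (2.07 to 2.22). Counts are not divided by transcript length, so these are not ratios of molecules and only their change between libraries can be read. The ratio in WT was 2.03 times that in KO in PA and 1.95 times in RO, and no library entered both comparisons. The labels do not say whether PA and RO of a genotype came from the same animals. These comparisons may therefore not be independent. The 4 intervals did not overlap. On the log2 scale the changes were -1.02 and -0.96, against a robust SD of 0.82 in PA and 0.76 in RO for the difference of 2 genes of these counts, taken from the spreads of the genes of like count and treating them as independent.

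Between stages the question is whether transcripts of the complex persist in round spermatids, which have no complex. Counts of both genes were as high in the RO libraries as in PA or nearly so. In WT, Sycp1 in RO was at 101% of its level in PA (log2 ratio 0.02, -0.04 to 0.08) and Sycp2 at 85.5% (-0.23, -0.26 to -0.20). In KO, Sycp1 in RO was at 128% of PA (0.36, 0.30 to 0.42) and Sycp2 at 113% (0.17, 0.13 to 0.21). Neither gene passed 2-fold in either genotype. Of all genes 40.2% of 23979 did in WT and 32.7% of 24806 in KO, but genes of like count seldom did. In WT 2.12% of those like Sycp1 were 2-fold lower in RO and 2.53% higher. For those like Sycp2 the shares were 0% and 5.15%. In KO 0% were lower for either gene, and 0.143% (Sycp1) and 0.538% (Sycp2) were higher. Genes of like count varied little between stages, with a robust SD between 0.24 and 0.36, and the largest deviation of the members was that of Sycp1 in KO, 1.31 robust SD above the median.

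The defining markers of both stages were then read beside this result, since the fractions can hold other cells. In bulk samples a smaller number of cells of a type and less RNA per cell cannot be told apart. Pachytene markers did not separate the fractions. Of the 10 listed, 4 had a symbol, and their summed level was 748.2 CPM (PA) and 764.6 CPM (RO) in WT, and 516.1 and 520.3 CPM in KO. Their median log2 ratio RO over PA was 0.04 in WT and 0.04 in KO, beside 0.01 over all genes in both genotypes. Hspa2, a chaperone of spermatocytes that takes part in taking the complex apart, was at 257.7 CPM in WT PA and 258.2 in WT RO, and Nek2, a kinase of spermatocytes, at 319.5 and 336.6. Mybl1, the transcription factor that drives the pachytene gene program, was at 161.5 and 157.4 CPM.

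Spermatid markers were higher in RO in both genotypes, in each of the 8 of 15 that had a symbol. Their summed level was 357.3 CPM (PA) and 702.8 CPM (RO) in WT, and 731.6 and 1326 CPM in KO, with median log2 ratios of 1.01 and 0.85. At least 2-fold higher in RO were 4 of them in WT (21.6% of all genes) and 1 in KO (17.5%). The sperm channel gene Catsper4 went from 88.9 to 199.0 CPM in WT and from 75.2 to 136.1 in KO. Akap4, of the fibrous sheath of the sperm tail, had 293 counts in PA and 903 in RO in WT, and 1270 and 2546 in KO. None of these markers was at 0 in a PA library. The part that spermatocytes in the RO fraction have in the counts of Sycp1 and Sycp2 there was not tested.

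**Figure D2:**
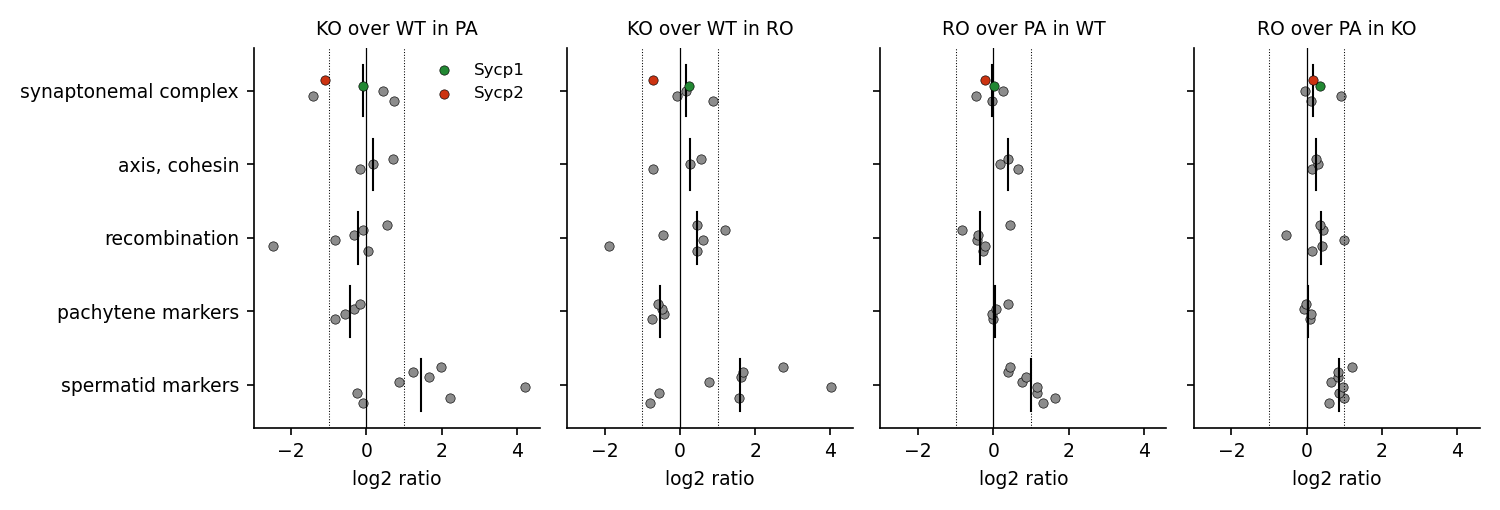
Log2 ratios of the genes of 5 lists in the 4 comparisons of input libraries, 1 point per gene with a symbol; the short vertical line is the median of the list and the dotted lines mark 2-fold. Between stages Sycp1 and Sycp2 lie within 0.36 of 0 while every spermatid marker is higher in RO. Between genotypes Sycp2 and the pachytene markers lie on the lower side in KO, while each of the other lists holds genes on both sides of 0.

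The same lists moved with the genotype. All 4 pachytene markers were lower in KO in both fractions (1 of them higher in PA with library totals alone), with a median log2 ratio of -0.45 in PA and -0.53 in RO, and none reached 2-fold. Hspa2 had the largest difference, -0.84 in PA and -0.75 in RO, near the values of Sycp2. Of the spermatid markers 6 of 8 were higher in KO in each fraction, with medians of 1.45 in PA and 1.59 in RO. The 2 lower in KO were Acrv1, named after its values were seen, and Catsper4. Their log2 ratios were -0.09 and -0.24 in PA and -0.81 and -0.55 in RO. With library totals alone all 8 were higher in PA. Of these 8 genes, 5 were at least 2-fold higher in KO in each fraction, where 23.8% of all genes were in PA and 23% in RO. Prm2, a protamine that packs sperm DNA, was at 80.7 CPM (WT) and 189.8 CPM (KO) in PA and at 106.5 and 340.5 CPM in RO. Leydig cell markers, of the steroid-making cells of the testis (3 of 7 with a symbol), were lower in KO, with medians of -1.82 in PA and -1.83 in RO. In RO they ran from -2.96, for a gene with 7 counts in KO and 71 in WT, to -0.70. Their summed levels were 155.2 CPM (WT) and 45.3 CPM (KO) in PA and 47.7 and 17.3 CPM in RO. The part of cell composition in the lower level of Sycp2 in KO was not tested.

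Of the other cells a testis fraction can hold, Sertoli cell markers (4 of 8 with a symbol) had medians KO over WT of 0.17 in PA and 0.31 in RO, and summed levels between 172.1 CPM (WT RO) and 318.1 (KO PA). Markers of myoid, endothelial, immune and blood cells (5 of 11 with a symbol) had medians of 0.19 and 1.38, and summed levels between 217.4 CPM (WT RO) and 439.6 (KO PA). Those of spermatogonia (3 of 8) had medians of 0.96 and 0.67 and summed to between 23.5 CPM (WT RO) and 60.4 (KO PA). No marker with a symbol was at 0 in any library.

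The other proteins of the complex did not follow a single pattern. Of 8 genes of the list, 5 had a symbol; Sycp3, Syce3 and Tex12 were not analysed here. In PA, 2 of the 5 were at least 2-fold lower in KO (19.9% of all genes), Sycp2 and Syce1, and 3 were short of 2-fold. With library totals alone 1 was 2-fold lower, Syce1, and 1 was 2-fold higher, 4930447C04Rik. The median of the 5 was -0.09 in PA and 0.15 in RO, beside 0.04 over all genes in both fractions. Without Sycp1 and Sycp2 the median in PA was 0.45.

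Syce1, a protein of the central element that links the ends of the SYCP1 filaments, had 1810 counts (WT) and 619 counts (KO) in PA and 1292 and 1170 counts in RO. The KO PA library alone was low, so the log2 ratio KO over WT was -1.43 (-1.57 to -1.30) for PA and -0.07 (-0.19 to 0.04) for RO. Syce2, also of the central element, had between 275 counts (WT PA) and 347 (KO PA), with a log2 ratio KO over WT of 0.45 (0.22 to 0.69) for PA and 0.15 (-0.07 to 0.37) for RO. 4930447C04Rik, which RefSeq also lists as Six6os1 and which encodes a further central element protein, was higher in KO in both fractions. It had 797 counts (WT) and 1227 counts (KO) in PA and 768 and 1339 counts in RO, with log2 ratios of 0.74 and 0.87, short of 2-fold; library totals alone put it past 2-fold. Sycp2 and 4930447C04Rik thus differed between genotypes in opposite directions, in both fractions.

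**Figure D3:**
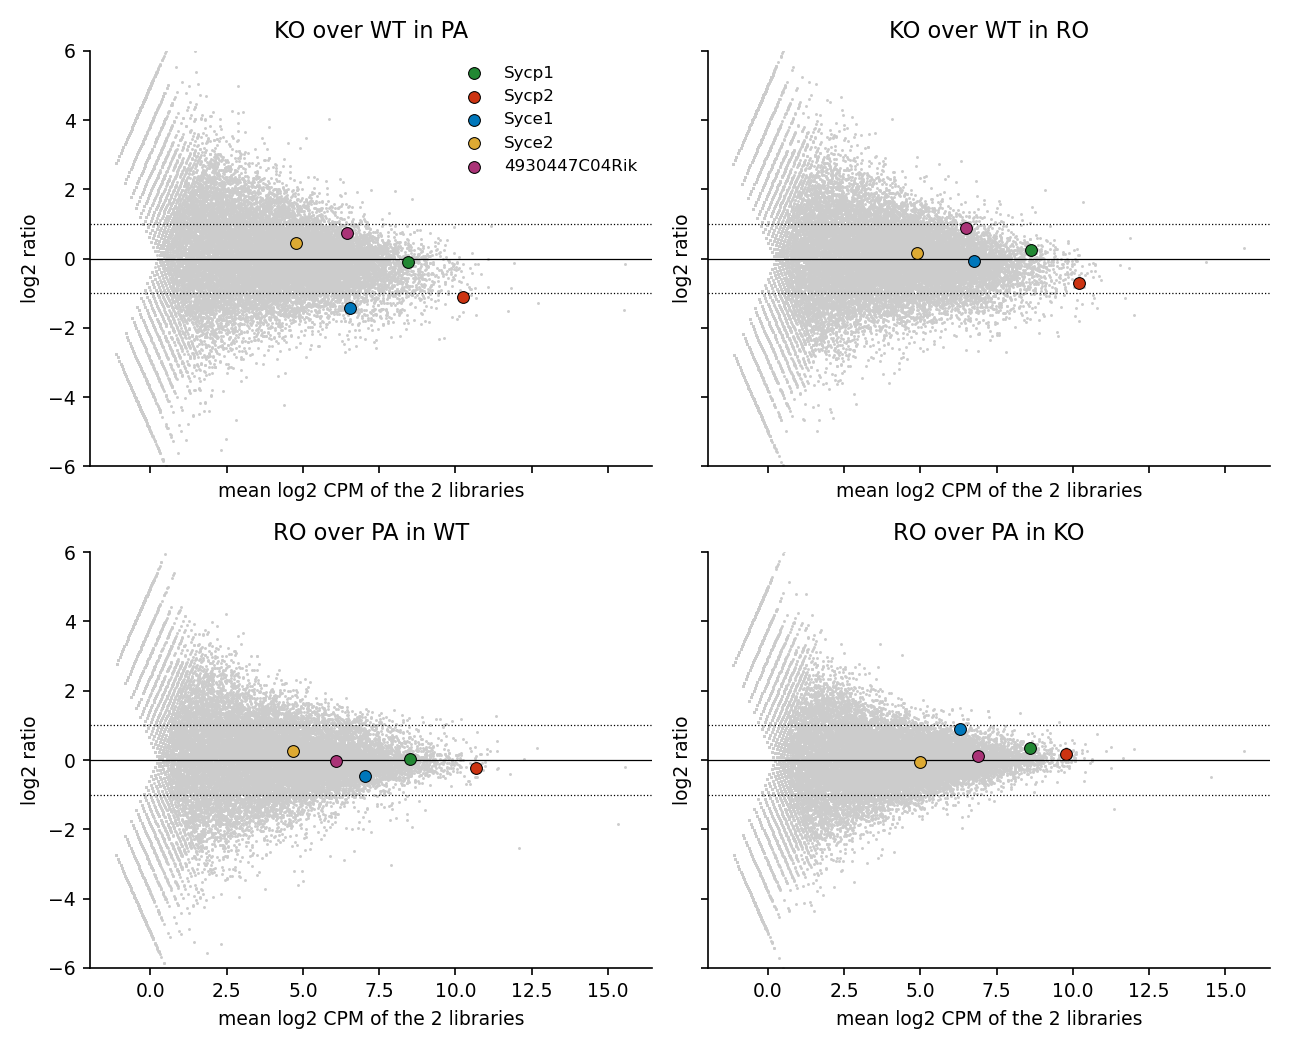
Log2 ratio of each gene that reached 1 CPM in one of the libraries compared (grey) against its mean log2 CPM, in the 4 comparisons, with the 5 genes of the synaptonemal complex in colour; dotted lines mark 2-fold and the vertical axis is cut at -6 and 6. Sycp2 lies at the abundant end, at -1.11 and -0.71 in the genotype comparisons, and the complex genes lie on both sides of 0.

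Genes of the chromosome axis and of recombination, which act beside the complex, were read from lists. Of 11 axis and cohesin genes 3 had a symbol, and none was 2-fold different in any of the 4 comparisons, though 1 was in PA with library totals alone. Over all genes the share was 43.7% (PA) and 42.1% (RO) between genotypes, and 40.2% (WT) and 32.7% (KO) between stages. Shares were lower among genes of like count to Smc1b. In PA 15.4% of those were 2-fold lower in KO and 0.459% higher. Between stages in WT 2.15% were lower in RO and 2.58% higher. With 3 genes, the absence of calls was not read as a trait of the list. Smc1b, the meiotic form of a cohesin subunit, was at 352.8 CPM (WT) and 394.3 CPM (KO) in PA and at 399.2 and 482.2 CPM in RO. Of 23 recombination genes 6 had a symbol, with a median KO over WT of -0.21 in PA, which was 0.07 with library totals alone, and 0.46 in RO. In PA 1 of the 6 was at least 2-fold lower in KO and none was higher, where 19.9% and 23.8% of all genes were. In RO 1 was lower and 1 higher, where 19% and 23% of all genes were, so these counts were near the shares over all genes. The lower one was Cntd1 in both fractions, a cyclin-like gene needed for crossovers. It had 2273 counts (WT) and 374 counts (KO) in PA and 1928 and 499 counts in RO. Among genes of like count to Cntd1, 10.5% in PA and 10.8% in RO were 2-fold lower in KO. The shares with a log2 ratio below that of Cntd1 were 0.164% and 0.807%. Tex15, which is needed for the repair of meiotic breaks, was higher in KO in both fractions but short of 2-fold (log2 ratios 0.56 and 0.45).

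For each member the genes with the most similar course over the 4 input libraries were sought among 7051 genes that had a symbol and reached 10 CPM in some input library. Likeness was the Euclidean distance between log2 CPM values centred on the mean of the gene. Nearest to Sycp2 were Catsperz, a part of the sperm calcium channel, at a distance of 0.04 with 1197 counts (WT) and 532 counts (KO) in PA and 1036 and 603 counts in RO, and then Gm45861 and Abhd3, both at 0.06. Nearest to Sycp1 were Hspa12b, Gm7444 and Zfp113, each at 0.04 and each with 317 counts or fewer in every library. Counting error at such counts, at the 109 to 270 of Abhd3 and at the 532 to 1197 of Catsperz, is larger than these distances. With 4 values per gene, close neighbours among 7051 genes are easily found, so the order of the nearest genes is not firm. The distance between Sycp1 and Sycp2 was 1.01.

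The peak lists hold 9 peaks of the 2 genes, and the authors' annotation places all 9 in coding sequence. Folds of IP over input, p-values and false discovery rates are the authors', and a fold is read only within its list. Sycp1 had a peak in KO lists alone, 2 in KO PA and 1 in KO RO. Sycp2 had a peak in each list: 1 in WT and 2 in KO for PA, and 2 in WT and 1 in KO for RO. The lists hold 7502 (WT) and 9931 (KO) peaks for PA and 9418 and 8846 for RO.

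One stretch of Sycp2 was called in all 4 lists. It lies in the part of the gene nearer to its end, and the bases common to all 4 peaks numbered 91, in 2 exon blocks on chromosome 2 (178358714 to 178358746 and 178360306 to 178360363). Its WT PA peak in the authors' deposited table ran from 178358247 to 178360363 (3 blocks, 121 exonic bp, fold 1.18, p-value 0.00091). The KO PA peak there, also in the authors' deposited table, ran from 178358714 to 178360453 (2 blocks, 181 bp, fold 2.26, p-value 6.3e-18). For RO the authors' deposited table of WT had it from 178358247 to 178362954 (4 blocks, 241 bp, fold 3.27, p-value 6.3e-74), and that of KO from 178358217 to 178362954 (4 blocks, 271 bp, fold 2.92, p-value 2.5e-53). The WT RO peak lay wholly within the KO RO peak, and each PA peak wholly within both.

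The remaining Sycp2 peaks were each found in 1 list. That of KO PA in the authors' deposited table lay near the middle of the gene, from 178374573 to 178374983 (2 blocks, 271 bp, fold 2.72, p-value 6.3e-16). That of WT RO in the authors' deposited table lay nearer to the gene's start, from 178381890 to 178383466 (3 blocks, 151 bp, fold 1.69, p-value 5e-45). So each fraction had 1 further peak, in KO for PA and in WT for RO, at different places.

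Sycp1 had 3 peaks at 3 places, and none overlapped another. The first of KO PA in the authors' deposited table ran from 102915823 to 102920572 on chromosome 3 (2 blocks, 120 bp, fold 2.82, p-value 0.0011, false discovery rate 0.0049) and the second from 102878811 to 102895858 (3 blocks, 120 bp, fold 1.89, p-value 1.1e-07). The peak of KO RO in the authors' deposited table ran from 102900052 to 102915210 (4 blocks, 270 bp, fold 3.33, p-value 1.3e-36). All 3 fell between 13.2% and 48.7% of its length, counted from its start. No peak of another gene overlapped a peak of either member.

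**Figure D4:**
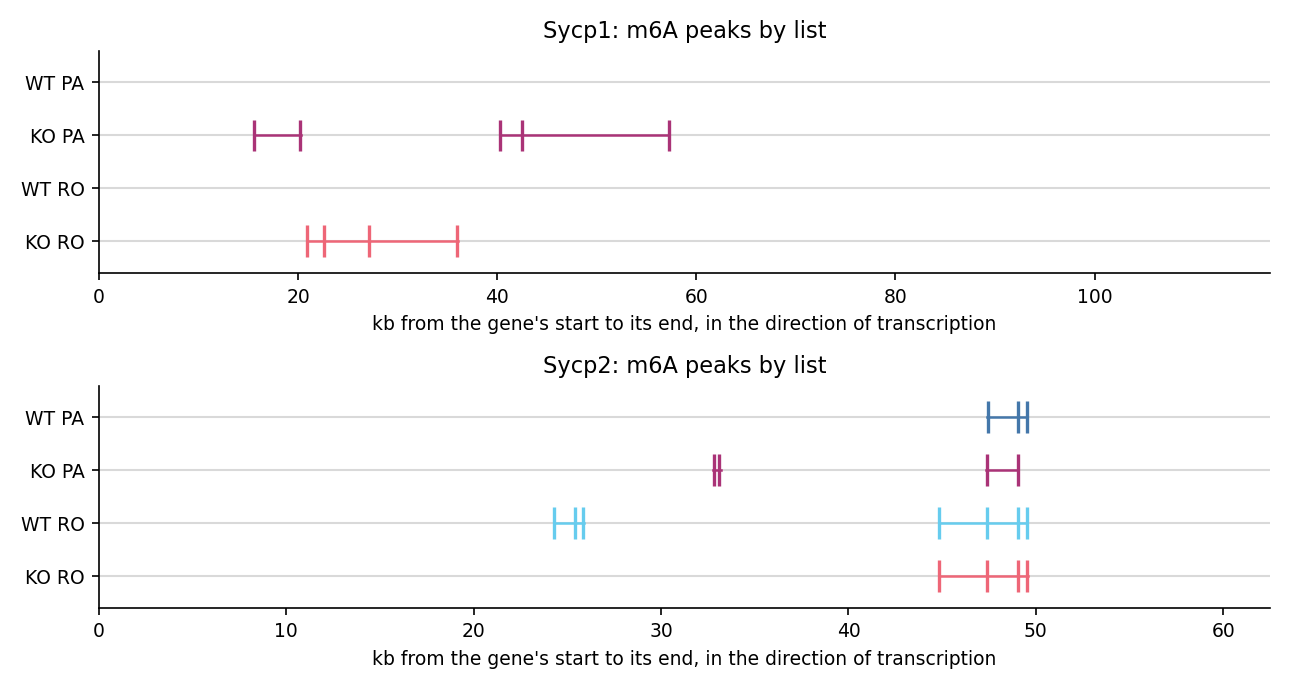
The m6A peaks of Sycp1 and Sycp2 in the 4 lists, drawn along the gene in kb from its RefSeq start; a horizontal bar spans a peak with its introns, and each tick stands at the centre of an exon block and is wider than the block. Sycp2 has 1 place, 44.8 to 49.6 kb from its start, with a peak in every list, and Sycp1 has peaks in the KO lists alone.

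The folds of these peaks were among the lowest of their lists, although the p-values of several were very small. The Sycp2 peak of WT PA was one of 3 at the lowest fold of that list, where the median was 11.7. In KO PA 2.97% of the peaks had a fold under 2.82, the highest of the 4 peaks of both genes, and the median of the list was 13. In WT RO 3.38% of the peaks had a fold under 3.27, and in KO RO 6.05% had a fold under 3.33. By p-value the shared Sycp2 peak ranked 999th of 9418 in WT RO and 1559th of 8846 in KO RO. All 9 peaks had a false discovery rate under 0.05, and none reached a fold of 5.

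**Figure D5:**
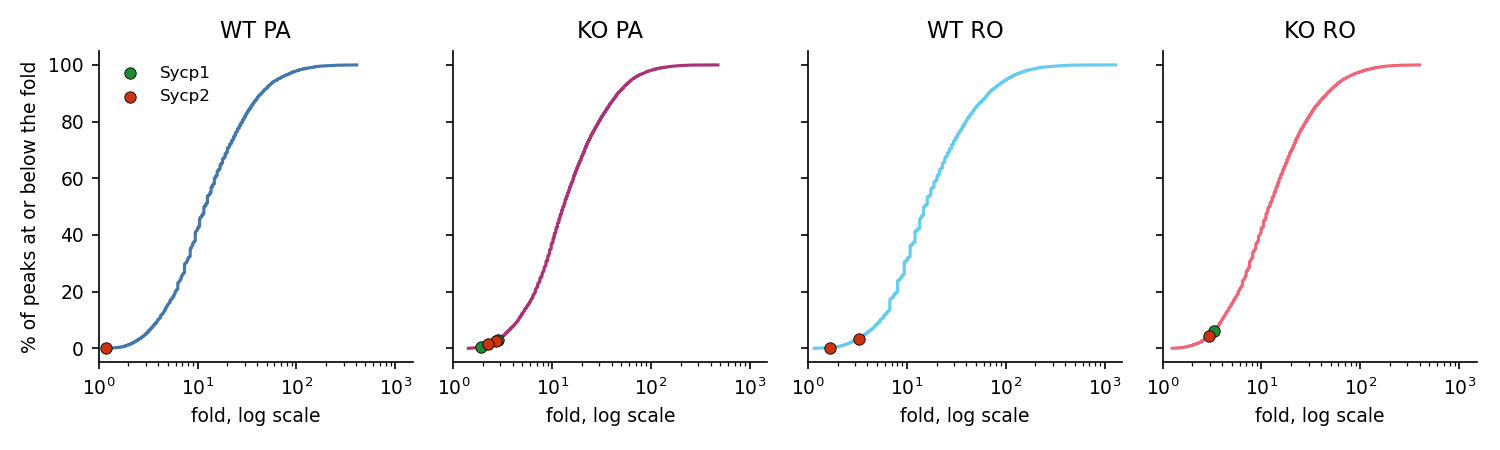
Cumulative share of peaks against the authors' fold of IP over input (log scale) in each list, with the peaks of Sycp1 and Sycp2 as points. All 9 points lie at the lower end, at folds between 1.18 and 3.33, against list medians between 11.7 and 15.1.

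The peaks of genes of like count were set beside the members, since their median fold was below that of the whole list in every case. In WT PA the 175 peaks of genes within a factor of 2 of the count of Sycp2 had a median fold of 5.96, and none had a fold below the 1.18 of Sycp2. In WT RO 15.1% of 271 such peaks lay below the highest fold of Sycp2, in KO RO 13.3% of 443 and in KO PA 9.5% of 600. For Sycp1 6.38% of 1645 peaks of genes of like count lay below its highest fold in KO PA and 13.7% of 1142 in KO RO. The folds of the members were therefore low among peaks of genes of their own count too.

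In each WT list taken alone, having no peak was common among genes of like count to Sycp1. Of the genes within a factor of 2 of the count of Sycp1, 41.4% of 1021 had no peak in WT PA and 37.5% of 981 had none in WT RO. In KO PA 27.8% of 859 such genes had none, and in KO RO 31.6% of 591. These genes include those without a peak in any list, while Sycp1 was named through its peaks. The share of genes with peaks in the KO lists alone was not counted, so how usual that pattern is was not shown. The difference between genotypes in Sycp1 peaks was not tested, and the depth of the IP libraries behind the lists is not known here.

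Some other meiotic genes carried more peaks. Tex15, with fewer counts than Sycp2 in every library, had 9 peaks (WT) and 10 (KO) in PA and 9 and 6 in RO. Brca2, which loads recombinases onto broken DNA, had between 2204 and 2888 counts, fewer than Sycp1 in every library, with 6 peaks (WT) and 12 (KO) in PA and 8 in each RO list. Smc1b, with 4139 to 5282 counts, had 1 peak, in KO PA. Exon lengths differ between these genes and were not taken into account.

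Of the 6 peaks of the other genes of the complex, 3 were in untranslated regions and 3 in coding sequence. Syce1 had 1 peak in the 3′ untranslated region in KO PA (fold 6.02 in the authors' deposited table) and 1 in WT RO (fold 7.13), which shared 180 bp. Syce2 had 1 in the 5′ untranslated region in WT PA (fold 14.8 in the authors' deposited table). 4930447C04Rik had 2 coding peaks in WT RO (folds 37.7 and 9.42 in the authors' deposited table) and 1 in KO RO (fold 10.5); the one with a fold of 9.42 had a false discovery rate of 0.41. Each of these folds was above those of Sycp1 and Sycp2 in its own list.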

How the data were processed

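Per the submitters' processing notes, cutadapt 2.5, HISAT2 2.1.0 and HOMER 4.10.4 were used with mm10, with no roles given. The authors deposited whole-number gene counts of the 4 input libraries; the counting tool and annotation are not given in the sources used here. The authors deposited 4 peak lists which, per the file headers, give a p-value, log10 scores of the p-value and false discovery rate, and a fold, the ratio of IP over input; the caller is not named. Per the labels' protocols RNA was fragmented to 100 to 200 nt.

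Counts were scaled with TMM (edgeR 4.0.16, R 4.3.3) over the 4 libraries and turned into log2 CPM (prior count 2). A gene entered a comparison if it reached 1 CPM in one of its libraries, and 2-fold was the limit for a call. Peaks overlapped by at least 1 bp of exon blocks on the same strand, as checked against bedtools. The code for the ratios was run on simulated data. There 200 genes were changed in KO, and the libraries otherwise differed in size and counting error alone. The real libraries differed far more widely, so this run checks the code and not the choice of scaling. Members, gene lists and examples (up to 4 of highest mean level per list) were chosen with earlier results of these data known. Alternatives were other scalings, priors, filters and peak limits. Tables and intervals were made in Python 3.11.15 (pandas 2.3.3, with scipy 1.17.1 for the intervals).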

Additional observations from a re-analysis of the deposited data

Results flagged for a closer look

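Within the complex, 1 genotype difference had opposite signs in the fractions and 4 stage differences had opposite signs in the genotypes; each rests on 1 library per group, and none was tested. The log2 ratio KO over WT of Sycp1 was -0.086 in PA and 0.25 in RO, but with library totals alone it was 0.20 and 0.43, of the same sign. The ratio RO over PA was -0.23 in WT and 0.17 in KO for Sycp2. For Syce1 it was -0.46 in WT and 0.90 in KO, the widest of these gaps. For Syce2 it was 0.25 in WT and -0.047 in KO, where the interval included 0 (-0.27 to 0.17). For 4930447C04Rik it was -0.026 in WT (-0.17 to 0.12) and 0.11 in KO (-0.0048 to 0.22), both within counting error of 0.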

How the results depend on the processing

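Ratios moved with the scaling, because the median log2 ratio of all genes KO over WT in PA went from 0.04 with TMM to 0.32 with library totals alone, and in RO from 0.04 to 0.22. With totals alone Sycp1 KO over WT was 0.20 in PA and 0.43 in RO and RO over PA in WT 0.11, while Sycp2 was -0.82, -0.53 and -0.13. Totals without the 20 highest genes gave Sycp1 0.12 in PA and 0.44 in RO, and Sycp2 -0.90 and -0.52. Upper quartile scaling gave -0.15 and -1.17 in PA. The median of the complex genes KO over WT was 0.20 in PA and 0.33 in RO with totals alone. Without Sycp1 and Sycp2 it was 0.45 in PA, and RO over PA in KO it was 0.11. A fold of at least 5 left 0 peaks of Sycp1 in KO PA and KO RO and 0 of Sycp2 in all 4 lists. RLE scaling, TMM factors from genes with a CPM of at least 10 (chosen after seeing the data), a prior count of 0.5 and other filters on low counts moved no result beyond counting error. A false discovery rate under 0.05 left the numbers of peaks unchanged. With a reciprocal overlap of 50% all 4 shared Sycp2 peaks kept a partner. The WT PA and KO RO peaks then no longer paired, since their overlap was 44.6% of the KO RO peak. No paired analysis was possible because the labels give no replicate numbers and each group has 1 library.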

Other observations

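Genes that take the complex apart or drive the meiotic divisions were described by a list of 13, of which 5 had a symbol. With TMM, 3 of the 5 had fewer scaled counts in KO for PA and 4 for RO, with median log2 ratios of -0.43 and -0.49 (-0.14 and -0.31 with library totals alone). Aurkb, a kinase of the chromosomal passenger complex, was the 1 gene at least 2-fold lower, in RO (19% of all genes), and is named after its values were seen. It had 250 counts (WT) and 115 counts (KO) in PA and 369 and 149 counts in RO. Trip13, which removes axis proteins once chromosomes have paired, had 205 and 242 counts in PA and 246 and 279 in RO.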
